A study of Mus musculus with 22 samples.

Results

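The response of the adult mouse liver to a 24 h fast was taken from 7 of the 22 arrays of the study, namely the 4 arrays of fasted control livers and the 3 arrays of fed control livers, chosen by their labels alone. Control mice were C57BL/6 with the genotype Tcf7l2 loxp/loxp and no Cre. They carried the floxed alleles and received tamoxifen at 3 weeks of age, as the knockout mice did, and livers were taken 1 to 2 months later after a 24 h fast or with food freely available. The other adult arrays, 7 of the 14, came from mice that carried SA-CreERT2 in addition and were fasted (4) or fed (3) alike. They entered the fit only to share its estimate of spread and are otherwise used where the knockout is named, and the other 8 arrays came from newborns. The replicates are called biological replicates in the labels, with 1 array for each liver sample. The series asks how Tcf7l2, a transcription factor of the Wnt pathway and a diabetes risk gene, shapes the liver's response to metabolic demand, and the control comparison gives the fasting response of livers without the deletion.

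In the fed liver, insulin and carbohydrate favour glycolysis, glycogen storage and the making of fatty acids and cholesterol through the SREBP transcription factors. During a fast the liver turns to fatty acid oxidation, ketone body formation and glucose output, driven in part by PPAR alpha, FOXO factors, glucocorticoid and glucagon. Each array carried liver RNA in the Cy3 channel and 1 commercial mouse reference RNA in the Cy5 channel, with no dye swap. The values below are log2 liver over reference (the log2 ratio), a change is the fasted mean minus the fed mean of that ratio with its standard error (SE), and adjusted p is from limma with Benjamini-Hochberg adjustment over 16097 genes.

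Feeding state went with scan day and with slide: the fasted control arrays lay on slides 1 and 2, scanned on 1 day, and the fed ones on slides 3 and 4, scanned on another. Fasting, slide and scan day therefore cannot be told apart in this comparison. The liver channel was well above background at 50.2 to 61.67% of spots on the fasted arrays and at 23.48 to 27.81% on the fed arrays, while the reference channel was so at 72.11 to 76.6% and 66.73 to 72.61%. The median liver signal of the negative control spots was 42 to 52 on the fasted arrays and 127 to 146 on the fed arrays. Ratios of replicate arrays correlated at 0.9616 to 0.9796 among fasted and 0.9739 to 0.9791 among fed livers. In bulk liver RNA, fewer cells of a type and less RNA per cell cannot be told apart.

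Because of the scan days, 3 readings are given side by side: the ratio, the liver channel alone (scaled to each array's 75th percentile, or by quantiles) and the reference channel alone. The reference RNA was the same product on every array, and yet 9439 of the 16097 genes (58.6%) passed the test between fasted and fed arrays in the reference channel alone, 2210 of them by at least 2-fold (13.7%). Over the 7495 genes whose liver signal was well above background on all 7 control arrays, the changes in the liver channel and in the reference channel correlated at r = 0.714 across genes, and those of the ratio and the reference at -0.282, given as a description of spots that share arrays. For some genes the reference spot followed the liver spot from array to array, so that the ratio stayed level while the liver signal moved. Among the 7495 genes, 211 were not called in the ratio while both channels changed by at least 2-fold in 1 direction.

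The ratio changed for 6014 of the 16097 genes (37.4%), of which 3311 rose (20.6%) and 2703 fell (16.8%) in the fasted livers. Of the called genes 55.1% were higher in fasting, a share that was 72.6% under median centring of the ratios in place of loess and 30.6% in the liver channel under the 75th percentile. The same test passed 7526 genes at an unadjusted p under 0.05, and 1366 of the called genes changed by at least 2-fold (8.49%). Of all tested genes, 5078 had a liver signal above background on the 4 fasted arrays and on none of the fed arrays, and 3 the reverse, so the counts by list below use the genes measured on all 7 arrays. There, 2745 of 7495 genes were called (36.6%), 1244 upward (16.6%) and 1501 downward (20.0%). The sign was the same in the liver channel alone under both scalings for 737 of the risen genes (9.83% of the 7495) and 813 of the fallen ones (10.8%), opposite under both for 888 genes, and it depended on the scaling for 307. The 4 fasted and 3 fed ratios did not overlap for 44.4% of the 7495 genes. A change of at least 2-fold in the ratio and in the liver channel was found for 35 risen genes (0.467%) and 82 fallen genes (1.09%). The median change of the 7495 genes was 0.51 under median centring in place of loess and -0.28 with the marked local backgrounds kept, that is, with local backgrounds that the scanner software marks as outliers used as they stand and not replaced by the array's median background. With these settings 4223 rose and 265 fell, and 273 rose and 1777 fell, so the lists are read against these shifts where the setting matters.

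**Figure D1:**
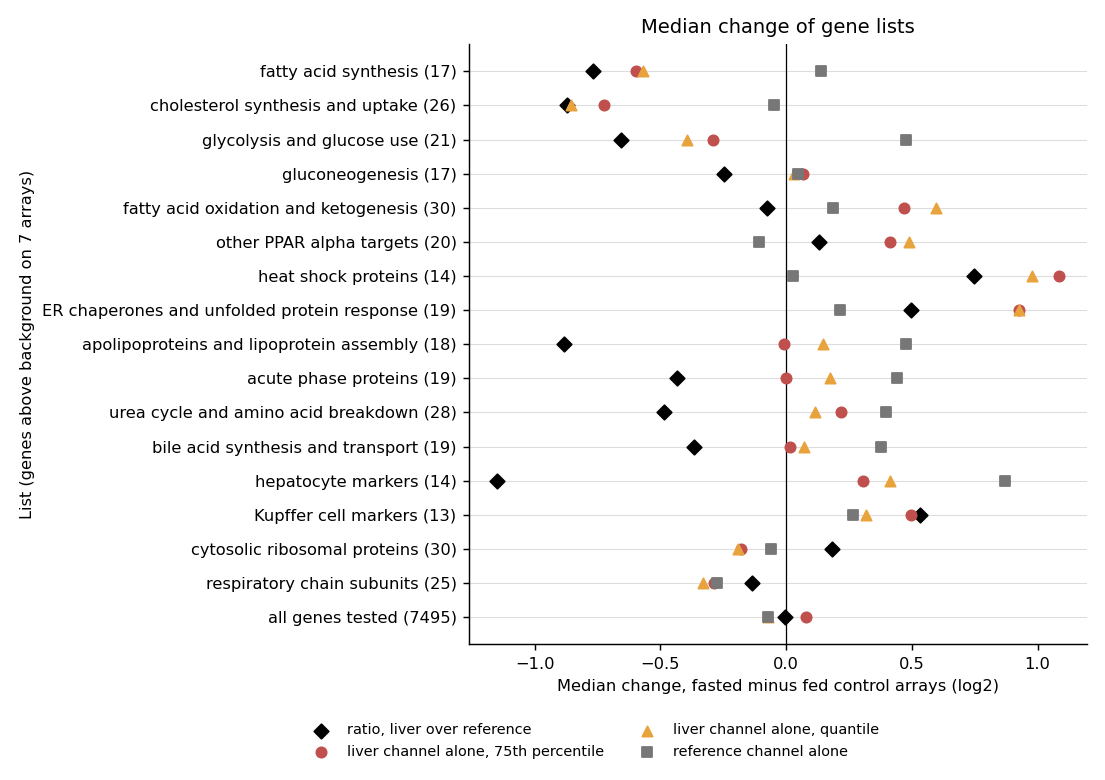
Median change from fed to fasted control livers (x axis, log2) of the members of 16 gene lists measured on all 7 arrays, with their number in brackets, in the ratio (diamonds), the liver channel alone under the 75th percentile (circles) and quantile (triangles) scalings, and the reference channel alone (squares). The lists of fatty acid and cholesterol synthesis lie below 0 and those of heat shock proteins and ER chaperones above 0 in the ratio and in both liver channel readings, whereas the hepatocyte markers lie at -1.15 in the ratio and above 0 in the liver channel.

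Many genes of lipid synthesis fell in fasting in the ratio, and most of those that fell were also lower in the liver channel. Of 17 genes of fatty acid synthesis measured on all 7 arrays, 10 fell and 0 rose, against 20.0% of all such genes falling. For 7 of the 10 the liver channel change was also below 0 under both scalings, a matter of sign alone. Their median change was -0.77 in the ratio, -0.60 and -0.57 in the liver channel under the 75th percentile and quantile scalings, and 0.14 in the reference channel, beside -0.00, 0.08, -0.07 and -0.07 over all 7495 genes. Under median centring 3 rose and 5 fell with a median of -0.09, below the 0.51 of all genes, and with a scale step between arrays 3 rose and 4 fell (median -0.31).

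Srebf1, which encodes the SREBP-1 transcription factor that drives lipogenic genes, had a log2 ratio of -0.26, 0.41, -0.11 and -0.24 in fasted livers 1 to 4 and 2.20, 2.59 and 2.61 in fed livers 1 to 3. Every fasted liver lay more than 1 log2 unit below every fed liver. Srebf1 fell by 2.52 ± 0.26 (SE, adjusted p = 2.9e-05), and the change was -2.66 and -2.67 in the liver channel alone and -0.16 in the reference. Its raw liver spot read 13109, 17720, 12687 and 11627.5 on the fasted arrays and 23423, 52192 and 57460 on the fed arrays.

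Fasn, the multienzyme that builds palmitate, showed the larger fall. Its log2 ratios were -0.38, -0.61, -0.73 and -0.43 in the fasted livers and 1.54, 2.38 and 2.84 in the fed livers, and it fell by 2.79 ± 0.42 (adjusted p = 0.00035). The liver channel changed by -2.24 and -2.20, and the reference by 0.50. The fed livers differed among themselves by more than the fasted livers did, yet the groups did not overlap.

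Acss2, which makes acetyl-CoA from acetate, read 2.58, 2.64 and 2.53 in fasted livers 1, 2 and 4 (its spot on fasted array 3 was left out as an outlier) and 3.76, 3.85 and 3.82 in the fed livers. It fell by 1.22 ± 0.12 (adjusted p = 3.0e-05), with -0.95 and -1.08 in the liver channel. Acly, which supplies cytosolic acetyl-CoA from citrate, read 0.59, 0.65, 0.32 and 0.49 against 1.15, 1.72 and 2.08 and fell by 1.14 ± 0.24 (adjusted p = 0.0028). In the liver channel under the 75th percentile Acly changed by -0.60 and did not pass the test (adjusted p = 0.0857). Both genes supply the carbon that Fasn uses, and in neither did the groups overlap.

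Scd1, the desaturase that makes oleate, read 3.58, 3.54, 3.54 and 2.30 in the fasted livers and 4.85, 4.68 and 4.91 in the fed livers. It fell by 1.57 ± 0.27 (adjusted p = 0.00069), and fasted liver 4 lay below the other fasted livers, which lay within 3.54 to 3.58. The call was lost in the liver channel under both scalings and with a scale step (adjusted p up to 0.173). Over all settings the change of Scd1 was -1.69 to -0.73. Dgat2, which completes triglyceride synthesis, fell by 0.77 ± 0.11 (adjusted p = 0.00022), with -0.81 and -0.57 in the liver channel and -0.52 in the reference. However, its change was 0.03 under median centring and 0.36 with a scale step between arrays. Other Dgat2 probes, above background on every control array, differed by -0.08 and -0.17 in the ratio. Their liver channel changed by 0.37 and 0.0005 under the 75th percentile. The fall of Dgat2 thus depended on the probe.

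Of the other genes of the pathway named here, Acaca alone passed the test. Further members that fell are not named here. Elovl6, the fatty acid elongase, read 1.14, 0.82, 1.34 and 1.47 in the fasted livers and 2.03 and 3.20 in fed livers 2 and 3, while fed liver 1 lay among the fasted livers. Its difference of -0.92 ± 0.44 (adjusted p = 0.12) was -1.43 with adjusted p = 0.0255 without fed liver 1. Acacb, the acetyl-CoA carboxylase of the mitochondrial surface, differed by -0.97 (adjusted p = 0.088) and by -1.26 and -1.48 in the liver channel. Me1, malic enzyme, differed by -0.96 ± 0.46 (adjusted p = 0.12). Acaca, the cytosolic carboxylase, passed the test in the ratio (-0.70) but was well above background on no fed array. Its liver channel differed in sign (0.02 and 0.32), so no fold is given. The call was lost with the control arrays only, with a scale step and with negative control background. It was also lost without fasted liver 2 or 3 or fed liver 3. Lpin1, a phosphatidate phosphatase that also acts as a coactivator in fasting, read 2.23, 1.67, 3.85 and 3.88 against 0.84, 2.16 and 3.20 and did not pass the test (adjusted p = 0.4).

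Thrsp, a lipogenic gene that responds to thyroid hormone and carbohydrate, shows how the choice of reading decides a result. Its raw liver spot read 2434, 2488, 2628 and 4166 on the fasted arrays and 2548, 37202 and 69835 on the fed arrays, while its reference spot read 506, 532, 534.5 and 772 and then 692, 7346 and 12666. The reference signal was 18.14 to 27.16% of the liver signal on each of the 14 adult arrays. The log2 ratio was thus 4.45, 4.61, 4.61 and 4.79 in fasted and 4.42, 4.69 and 4.22 in fed livers, a difference of 0.17 ± 0.13 (adjusted p = 0.33), beside -3.76 and -3.84 in the liver channel and -3.96 in the reference. Fed liver 1 had a Thrsp signal as low as the fasted livers.

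**Figure D2:**
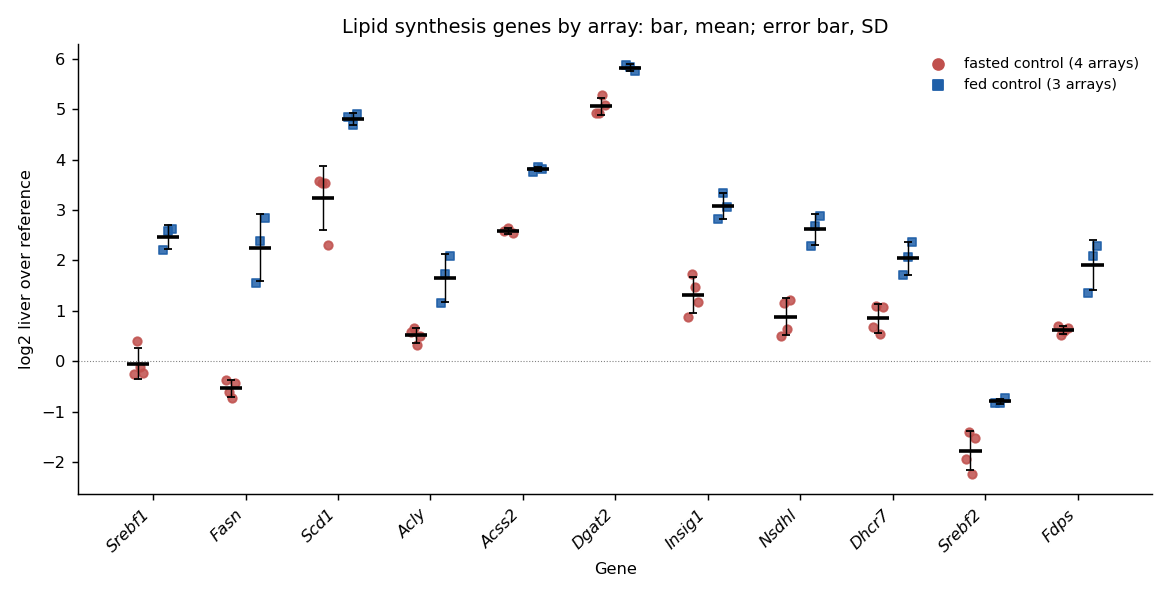
Log2 liver over reference (y axis) of 11 genes of fatty acid and cholesterol synthesis on each of the 4 fasted (circles) and 3 fed (squares) control arrays, with the mean (bar) and the SD (error bar). Each gene shown lies lower in all fasted livers than in any fed liver, with means lower by 2.52 for Srebf1 and 2.79 for Fasn on the log2 scale. Only genes that passed the test are shown, and members that did not, such as Elovl6 and Sqle, are left out. The groups did not overlap for 44.4% of the 7495 genes measured on all 7 arrays.

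Genes of cholesterol synthesis and uptake fell as a group. Of 26 members measured on all 7 arrays, 14 fell and 0 rose, and 13 of the 14 had the same sign in the liver channel alone. The ratio change was below 0 for 24 of the 26, and the liver channel change was below 0 under both scalings for 24. The medians were -0.87 in the ratio, -0.72 and -0.85 in the liver channel and -0.05 in the reference. Under median centring 4 fell and 2 rose (median -0.30), and with a scale step 8 fell. Without fed liver 2 the number that fell was 9, and without fed liver 3 it was 10.

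Among the regulators, Insig1, which holds the SREBP complex in the endoplasmic reticulum, read 0.89, 1.73, 1.48 and 1.18 in fasted and 2.83, 3.35 and 3.07 in fed livers and fell by 1.76 ± 0.27 (adjusted p = 0.00039). Its liver channel changed by -0.67 and -0.91 and its reference by 0.85. The liver channel change did not pass the test under the 75th percentile (adjusted p = 0.0649). Srebf2, which encodes the SREBP that favours sterol genes, read -1.93, -1.40, -2.23 and -1.53 against -0.82, -0.83 and -0.74 and fell by 0.98 ± 0.18 (adjusted p = 0.0012). Insig2, the paralog whose liver transcript is known to be raised in fasting, read 2.34, 1.79, 1.38 and 1.55 against 2.10, 1.36 and 1.19, with overlapping groups (0.22 ± 0.27, adjusted p = 0.56).

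Among the enzymes, Nsdhl, a demethylating dehydrogenase of the sterol nucleus, read 0.50, 1.16, 0.65 and 1.22 in fasted and 2.28, 2.69 and 2.87 in fed livers, a fall of 1.74 ± 0.23 (adjusted p = 0.00014). Dhcr7, a reductase of the last steps, fell by 1.19 ± 0.24 (adjusted p = 0.002), and by 1.83 in the liver channel under the 75th percentile. Fdps, farnesyl diphosphate synthase, read 0.70, 0.51, 0.60 and 0.66 against 1.36, 2.08 and 2.29 and fell by 1.29 ± 0.33 (adjusted p = 0.0077). Fdps lost its call under median centring and in the liver channel under both scalings. Idi1, the isomerase before it, fell by 1.08 ± 0.40 (adjusted p = 0.046), a call lost without fasted liver 1, 2 or 3 or fed liver 2 or 3 (adjusted p = 0.06 to 0.13). In all, it was lost in 14 of 24 settings (adjusted p up to 0.38). These include median centring, a scale step and the liver channel under both scalings.

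The other enzymes of the pathway named here did not pass the test in the ratio. Further members among the 14 that fell are not named here. Hmgcs1, a cytosolic synthase of the early steps, differed by -0.68 ± 0.40 (adjusted p = 0.2), and by -1.03 in the liver channel under the 75th percentile. Sqle, squalene epoxidase, differed by -0.58 ± 0.53 (adjusted p = 0.42).

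The promoters of these lists were read from RefSeq (build GRCm38.p6), as the 250 bases before to the 50 after a gene's start. Letters searched on both strands were TCACNCCAC for the sterol regulatory element, CCAAT for the CCAAT box bound by NF-Y, and CACGTG for the E-box. The CCAAT letters were in 16 of 18 promoters of the cholesterol list (88.9%) and in 13 of 17 of the fatty acid list (76.5%), beside 11096 of all 27025 promoters in the table (41.1%). The sterol element letters were in 1 of the 18 (5.56%) beside 388 of all (1.44%), and the 1 was Hmgcs1. Its 250 bases before the start, at chr13:119690101-119690350 on the + strand, are shown with those of Fasn, at chr11:120824548-120824797 on the - strand, as the lipid synthesis promoters with most matches to these letters among those printed. Capitals mark CCAAT or its reverse complement ATTGG in both and TCACCCCAC in Hmgcs1, and a match is a description of the letters only.
Hmgcs1: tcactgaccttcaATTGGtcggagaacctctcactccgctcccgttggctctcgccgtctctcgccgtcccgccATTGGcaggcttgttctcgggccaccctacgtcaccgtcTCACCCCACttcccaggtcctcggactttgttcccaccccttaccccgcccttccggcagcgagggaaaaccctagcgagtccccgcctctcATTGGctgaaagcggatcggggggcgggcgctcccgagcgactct
Fasn: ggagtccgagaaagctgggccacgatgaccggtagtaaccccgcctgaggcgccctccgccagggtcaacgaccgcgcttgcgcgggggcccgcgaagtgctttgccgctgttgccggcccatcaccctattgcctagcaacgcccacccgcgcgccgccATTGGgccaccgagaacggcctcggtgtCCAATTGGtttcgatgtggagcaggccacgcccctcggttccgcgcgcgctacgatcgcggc

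Genes of glycolysis and glucose use were lower in the ratio, with a part of that difference in the reference. Of 21 members, 17 fell and 0 rose, and 12 of the 17 had the same sign in the liver channel. The medians were -0.66 in the ratio, -0.29 and -0.40 in the liver channel and 0.48 in the reference. Under median centring 3 fell and 1 rose (median 0.00), and with a scale step 10 fell. Khk, which phosphorylates fructose, read 2.92, 2.95, 2.94 and 3.01 against 3.80, 3.89 and 4.00 and fell by 0.94 ± 0.09 (adjusted p = 2.1e-05), with -0.65 and -0.56 in the liver channel. Tkt, transketolase of the pentose phosphate pathway, fell by 1.25 ± 0.15 (adjusted p = 6.1e-05), and by 0.91 in the liver channel. Khk and Tkt were thus lower in both readings, but Khk did not pass the test in the liver channel under either scaling. Its call was also lost under median centring and with a scale step, and its change over all settings was -0.99 to -0.07. Tkt lost its call under median centring.

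Pklr, the liver pyruvate kinase, read 4.20, 3.54, 2.08 and 3.93 against 2.08, 3.74 and 4.29, above background on 2 of the 3 fed arrays (0.07, adjusted p = 0.93). Eno1, an enolase, fell by 1.83 ± 0.17 in the ratio (adjusted p = 1.4e-05), but its liver channel changed by 0.71 and 0.52 and its reference by 2.32.

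Gluconeogenesis genes were split. Of 17 members, 3 rose and 6 fell, beside 16.6% and 20.0% of all genes measured on all 7 arrays. The sign was the same in the liver channel for 2 of the risen and 3 of the fallen genes. The median was -0.25 in the ratio and 0.07 and 0.03 in the liver channel. With a scale step 5 rose and 0 fell (median 0.53). G6pc, glucose-6-phosphatase, which releases glucose from the liver, read 4.71, 4.98, 4.75 and 4.95 in fasted and 5.75, 5.73 and 5.47 in fed livers. It fell by 0.80 ± 0.11 (adjusted p = 0.00013), and the liver channel changed by -1.11 and -1.10, the reference by -0.79, and the ratio by 0.29 with a scale step. Fbp1, fructose-1,6-bisphosphatase, fell by 1.89 ± 0.20 in the ratio (adjusted p = 3.0e-05), with -0.48 and 0.06 in the liver channel. Ldha, lactate dehydrogenase A, rose by 0.94 ± 0.19 (adjusted p = 0.0024), with 0.31 and 0.39 in the liver channel. Ppargc1a, the fasting-induced coactivator of this pathway, was above background on no fed array, and the ratios overlapped (adjusted p = 0.92).

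Fatty acid oxidation and ketogenesis were level in the ratio and higher in the liver channel. Of 30 members, 5 rose and 8 fell, beside 16.6% and 20.0% of all genes measured on all 7 arrays, with a median of -0.08. The liver channel change was above 0 under both scalings for 23 of the 30, with medians of 0.47 and 0.60. The reference median was 0.19. The number that rose was 2 without fasted liver 4 or fed liver 1 and 3 without fasted liver 2 or 3 or fed liver 2 or 3. Under median centring 24 rose and 0 fell (median 0.68), and with a scale step 16 rose and 0 fell (median 0.60).

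Genes of fatty acid entry to mitochondria and of peroxisomal oxidation carried that difference between readings. Cpt1a, which admits long fatty acids to mitochondria, read 2.44, 2.77, 2.76 and 2.95 in fasted and 2.41, 2.68 and 2.53 in fed livers (0.19 ± 0.16, adjusted p = 0.38), and its liver channel changed by 1.64 and 1.62 and its reference by 0.94. Another Cpt1a probe, above background on 2 fed arrays, differed by 1.55 in the ratio and by 1.78 in the liver channel under the 75th percentile. The level ratio of Cpt1a thus depended on the probe. Ehhadh, the peroxisomal bifunctional enzyme, fell in the ratio by 0.84 ± 0.15 (adjusted p = 0.0011) while its liver channel changed by 1.78 and 1.72 and its reference by 2.05. Its raw liver spot was 22374, 30890.5, 17377.5 and 29162 on the fasted arrays and 2322, 2939.5 and 5918 on the fed arrays, and its reference spot was 5449, 7687, 5660 and 6648 and then 499, 671 and 891.5. Each channel of every fasted array was thus above the same channel of every fed array.

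**Figure D3:**
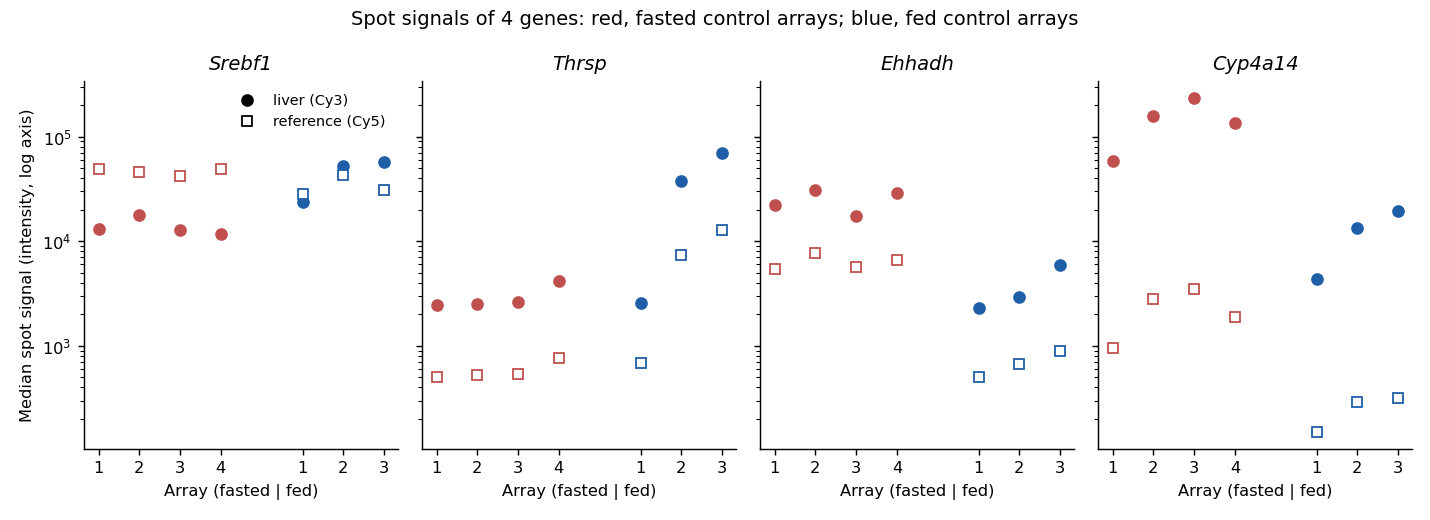
Median spot signal (y axis, log scale) in the liver channel (filled) and the reference channel (open) for Srebf1, Thrsp, Ehhadh and Cyp4a14 on each fasted (red) and fed (blue) control array. The Srebf1 reference spots lie within 28271 to 49431 on all 7 arrays, whereas the reference spots of the other genes follow their liver spots, for Ehhadh from 499 to 7687.

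Members that rose in the ratio and in the liver channel include Etfdh, which passes electrons from acyl-CoA dehydrogenases to the respiratory chain. It read 3.52, 3.62, 3.86 and 3.68 in fasted and 2.86, 2.90 and 2.76 in fed livers and rose by 0.83 ± 0.14 (adjusted p = 0.00064), with 1.04 in the liver channel under both scalings and -0.26 in the reference. Acadl, the long chain acyl-CoA dehydrogenase, rose by 0.64 ± 0.16 (adjusted p = 0.0084), with 2.12 and 1.92 in the liver channel and 1.03 in the reference. Decr1, a reductase for unsaturated fatty acids, rose by 1.92 ± 0.24 (adjusted p = 0.0001) and was above background on 2 of the 3 fed arrays. Acadl and Decr1 read 0.24 and 0.25 and lost the call with marked local backgrounds kept.

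Of 20 other PPAR alpha targets measured on all 7 arrays, 4 rose and 3 fell, beside 16.6% and 20.0% of all genes so measured. The medians were 0.13 in the ratio, 0.41 and 0.49 in the liver channel and -0.11 in the reference. Under median centring and with a scale step 11 rose and 1 fell, and with marked local backgrounds kept 1 rose and 3 fell (median -0.53). The acyl-CoA thioesterases, which free fatty acids from CoA, were among the genes that rose, and they are close paralogs whose probes may take each other's transcripts, which was not tested. Acot1 read 3.40, 4.50, 4.78 and 4.21 in fasted and 2.51, 1.81 and 2.56 in fed livers and rose by 1.93 ± 0.43 (adjusted p = 0.004), with 2.16 and 2.12 in the liver channel and -0.30 in the reference. Acot4 read 6.30, 7.15, 7.50 and 6.73 against 2.69, 3.24 and 4.63 and rose by 3.40 ± 0.38 (adjusted p = 4.8e-05), with 1.65 and 1.47 in the liver channel. Acot3 rose by 4.01 ± 0.59 (adjusted p = 0.00028) but was above background on 1 fed array. With marked local backgrounds kept, Acot1 stayed called, whereas Acot4 read 0.52 and Acot3 1.51 without passing the test.

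Fgf21, the hormone that the fasted liver secretes, had log2 ratios of 2.61, 2.60, 3.21 and 2.32 in fasted and 0.65, 0.43 and -0.01 in fed livers and was well above background on no fed array. It was at least 3.31-fold higher in fasting (adjusted p = 0.0042). Such a bound sets the mean of the liver channel in the group that was measured against the lowest signal that counts as measured on each array of the other group, or the gene's own signal where that is higher. It is given as the lowest over 3 scalings of the liver channel (after loess and Aquantile, by the 75th percentile, and by quantiles), since the first alone gave 5.32-fold for Fgf21, and without dye swaps that scaling is open to dye bias. Cyp4a31, a fatty acid omega-hydroxylase, was likewise unmeasured in fed livers and at least 1.08-fold higher (adjusted p = 0.00045). Both lost the call with marked local backgrounds kept (Fgf21 adjusted p = 0.2).

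Cyp4a10 and Cyp4a14, omega-hydroxylases and classical PPAR alpha targets, differed between readings. Cyp4a10 read 7.29, 7.69, 7.73 and 7.81 in fasted and 6.76, 6.89 and 6.61 in fed livers, without overlap, as for 44.4% of the 7495 genes. It did not pass the test (0.88 ± 0.33, adjusted p = 0.053), while its liver channel changed by 2.11 and 2.15. Its other probes, measured on all 7 arrays, differed by -0.64, 0.67 and 3.08 in the ratio. Their liver channel changed by 3.27, 2.56 and 2.76 under the 75th percentile. Cyp4a14 read 7.82, 7.69, 7.64 and 8.12 against 7.59, 8.06 and 8.02 (-0.08 ± 0.26, adjusted p = 0.85). The Cyp4a14 liver spot read 57758, 157545, 234616 and 135302 on the fasted arrays against 4311, 13243.5 and 19553 on the fed arrays, and the reference spot 956, 2783, 3484.5 and 1886 against 150, 288.5 and 314.

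Pex11a, a peroxisome proliferation factor, rose by 1.20 ± 0.23 (adjusted p = 0.0015), a call lost with marked local backgrounds kept (0.87, adjusted p = 0.0613) and in the liver channel under both scalings (0.35 and 0.37, adjusted p = 0.355 and 0.319). Angptl4, a secreted inhibitor of lipoprotein lipase, read 2.58, 2.40, 3.13 and 3.15 in fasted and 1.94, 1.85 and 2.00 in fed livers and rose by 0.89 ± 0.30 (adjusted p = 0.033). The groups did not overlap, as for 44.4% of the 7495 genes measured on all 7 arrays. The Angptl4 call was lost without fasted liver 3 or 4 or any 1 fed liver (adjusted p = 0.0656 to 0.089). It was also lost in the liver channel under both scalings and with marked local backgrounds kept. Fabp1, the abundant liver fatty acid binding protein, went the other way, from 11.46, 10.95 and 10.84 in fed to 8.52, 8.87, 9.20 and 8.94 in fasted livers, a fall of 2.20 ± 0.19 (adjusted p = 8.1e-06) with -1.44 in the liver channel under quantile scaling and a larger fall under the 75th percentile.

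Pdk4, the kinase that holds back pyruvate oxidation, read 2.69, 0.76, 1.85 and 1.63 in fasted and 1.54, 0.18 and 0.40 in fed livers (1.02 ± 0.48, adjusted p = 0.11) and was above background on 1 fed array. Its adjusted p was 0.0398 without fasted liver 2 and 0.0488 without fed liver 1. Txnip, an inhibitor of glucose uptake, did not pass the test in the ratio (-0.51, adjusted p = 0.38), while its liver channel changed by 1.82 and 1.59 and its reference by 2.01.

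**Figure D4:**
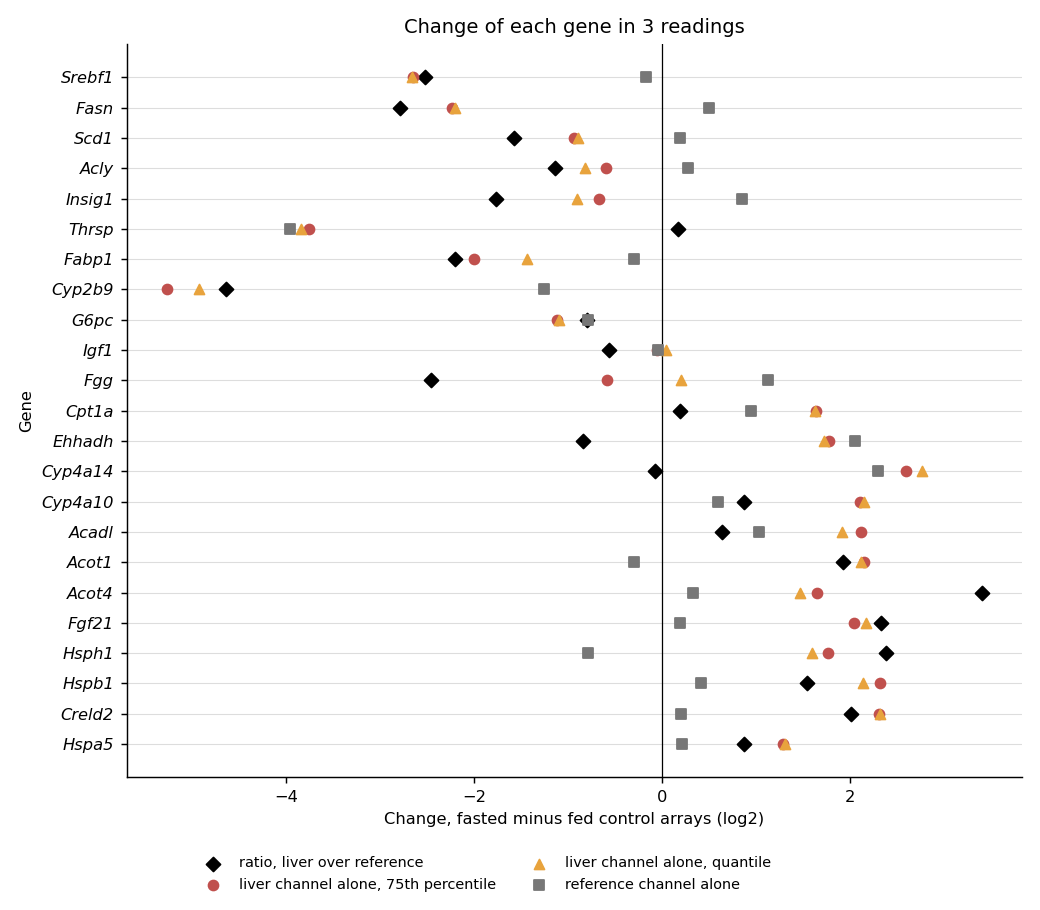
Change from fed to fasted control livers (x axis, log2) of 23 genes in the ratio (diamonds), the liver channel alone under both scalings (circles and triangles) and the reference channel alone (squares). For Srebf1, Fasn, Acot1 and Creld2 ratio and liver channel lie together, whereas for Thrsp and Cyp4a14 the ratio lies near 0 and the liver and reference channels lie together far from it.

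Few insulin and growth hormone genes passed the test. The 18 genes of insulin signalling and FOXO action had changes of -0.62 to 1.46 in the ratio. Of these, 1 rose and 0 fell, beside 16.6% and 20.0% of all genes measured on all 7 arrays. That 1 was Pik3r1, the regulatory subunit of PI 3-kinase (0.68 ± 0.19, adjusted p = 0.015), whose liver channel read -0.12 and -0.35 and whose adjusted p was 0.0632 without fed liver 1. Igfbp1, an IGF binding protein held down by insulin, read 5.66, 6.61, 6.68 and 7.21 in fasted and 6.06, 5.02 and 5.28 in fed livers (1.09 ± 0.52, adjusted p = 0.12). Fed liver 1 lay above fasted liver 1. The 13 genes of the growth hormone axis had changes of -0.79 to 1.93 in the ratio. Of these, 1 that is not named here rose, with the same sign in the liver channel, and 2 fell. The falls were Igf1, the growth factor the liver secretes, by 0.57 ± 0.11 (adjusted p = 0.0021), and Ghr, the growth hormone receptor, by 0.79 ± 0.12 (adjusted p = 0.00028). Their liver channels read -0.05 and 0.04 for Igf1 and -0.03 and 0.04 for Ghr.

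Heat shock proteins, the cytosolic chaperones under HSF control, were higher in fasted livers. Of 14 members measured on all 7 arrays, 8 rose and 0 fell, against 16.6% of all such genes rising. All 8 had the same sign in the liver channel, which is not a test of each gene there. Of the genes named below, Hspa8 lost its call in the liver channel under both scalings and Hsp90aa1 under quantile scaling. The medians were 0.75 in the ratio, 1.09 and 0.98 in the liver channel and 0.03 in the reference. The number that rose was 4 without fasted liver 4, fed liver 1 or fed liver 2 and 5 without fasted liver 3, 4 with marked local backgrounds kept (median 0.69) and 13 under median centring.

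Hsph1, a large chaperone that recharges HSP70, read 1.14, -0.15, 0.43 and 1.12 in fasted and -2.22, -1.76 and -1.28 in fed livers and rose by 2.39 ± 0.39 (adjusted p = 0.00052), with 1.77 and 1.60 in the liver channel and -0.79 in the reference. Hsp90aa1, the inducible HSP90, read -0.46, -1.34, -0.97 and -0.18 against -3.08, -2.77 and -2.17 and rose by 1.93 ± 0.38 (adjusted p = 0.0017). In neither gene did a fasted liver reach down to a fed one. Hspa8, the constitutive HSP70, read -0.01, -0.60, -0.23 and -0.33 against -2.21, -1.63 and -1.22 and rose by 1.40 ± 0.28 (adjusted p = 0.002), with 0.36 and 0.40 in the liver channel and -0.95 in the reference.

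Hspa1b, an inducible HSP70 whose sequence is almost that of Hspa1a, read 3.48, 2.53, 2.85 and 2.52 in fasted livers and 0.87, 1.35 and 1.09 in fed livers, where it was not well above background. It was at least 3.29-fold higher in fasting (adjusted p = 0.0038), a call lost with marked local backgrounds kept (adjusted p = 0.35) and in the liver channel under quantile scaling (adjusted p = 0.0756). Hspb1, a small heat shock protein, rose by 1.54 ± 0.48 (adjusted p = 0.024), with 2.32 and 2.14 in the liver channel. The call was lost without fasted liver 3 or 4 or any 1 fed liver (adjusted p = 0.0551 to 0.0641). It was also lost with the replicate number as a block and with marked local backgrounds kept. Hsp90ab1, the constitutive HSP90, did not pass the test in the ratio (0.07 ± 0.23, adjusted p = 0.85), with 1.49 and 1.52 in the liver channel and 1.30 in the reference.

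Chaperones of the endoplasmic reticulum (ER) and genes of the unfolded protein response also rose. Of 19 members, 9 rose and 0 fell, all 9 with the same sign in the liver channel, and the medians were 0.50 in the ratio, 0.93 in the liver channel under both scalings and 0.21 in the reference. The number that rose was 6 without fed liver 1, 3 with marked local backgrounds kept (median 0.31) and 16 under median centring.

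Creld2, an ER folding factor, read 0.79, -0.42 and 0.77 in fasted livers 1, 2 and 4 and -2.11, -1.57 and -1.22 in fed livers and rose by 2.01 ± 0.44 (adjusted p = 0.0037), with 2.31 and 2.33 in the liver channel. Hyou1, an ER chaperone of the HSP70 family, read 1.45, 0.74, 1.74 and 1.82 against -0.80, -0.43 and 0.36 and rose by 1.73 ± 0.42 (adjusted p = 0.0066). Both genes are known targets of the unfolded protein response. Sdf2l1, a partner of the chaperone BiP, read 1.60, 0.56, 0.82 and 1.23 against -0.32, -0.40 and -0.08 and rose by 1.31 ± 0.33 (adjusted p = 0.0073). Dnajb9, a co-chaperone of BiP, read 2.57, 2.43, 2.22 and 2.64 against 1.08, 1.40 and 1.81 and rose by 1.03 ± 0.21 (adjusted p = 0.0022).

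Hspa5, which encodes BiP itself, read 0.68, 0.00, 0.01 and 0.45 in fasted and -1.06, -0.39 and -0.31 in fed livers and rose by 0.87 ± 0.29 (adjusted p = 0.034). The groups did not overlap, as for 44.4% of the 7495 genes measured on all 7 arrays. The call was lost without fasted liver 1 or 4 or fed liver 1 or 2 (adjusted p = 0.0511 to 0.154). It was also lost with marked local backgrounds kept. Hsp90b1, the ER member of the HSP90 family, did not pass the test (0.42 ± 0.27, adjusted p = 0.25).

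**Figure D5:**
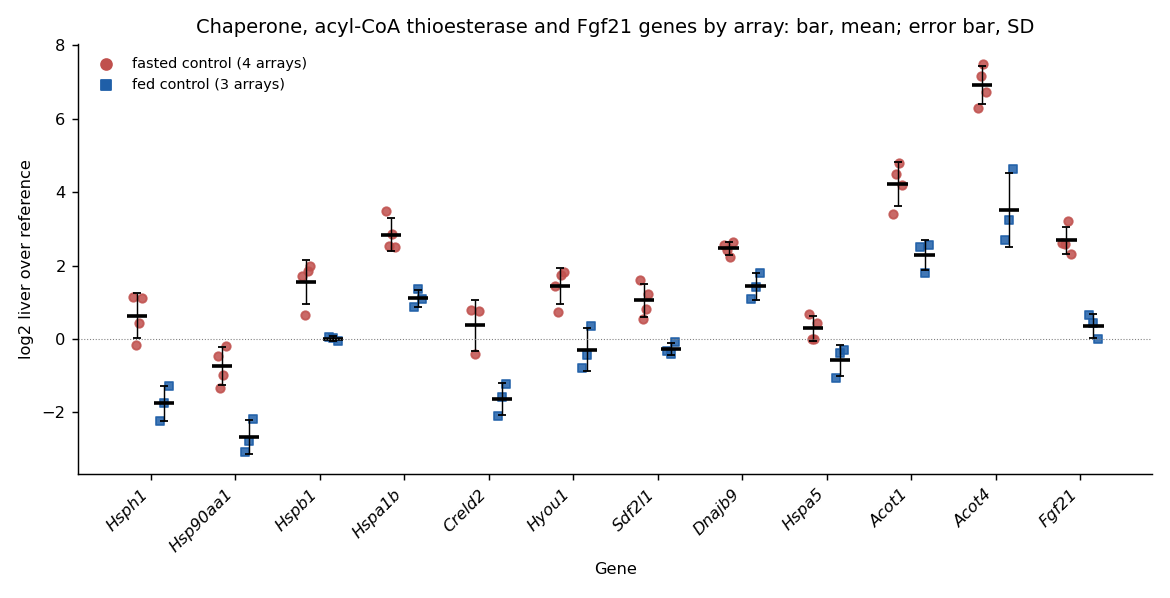
Log2 liver over reference (y axis) of 9 chaperone genes, Acot1, Acot4 and Fgf21 on each of the 4 fasted (circles) and 3 fed (squares) control arrays, with the mean (bar) and the SD (error bar). All fasted livers lie above all fed livers for each gene shown, and Hspa1b and Fgf21 were not well above background on the fed arrays. Only genes that passed the test are shown, and Hsp90ab1 and Hsp90b1, which did not, are left out. The groups did not overlap for 44.4% of the 7495 genes measured on all 7 arrays.

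The ER stress element, CCAAT and CCACG with 9 bases of any kind between them, searched on both strands and holding a CCAAT box within it, was in the promoter window of 7 of the 17 ER list genes in the RefSeq table (41.2%) beside 37 of all 27025 (0.137%). The heat shock element, GAA, TTC and GAA with 2 bases of any kind between neighbours, was in 4 of 13 heat shock promoters (30.8%) beside 179 of all (0.662%), and CCAAT alone was in 15 of the 17 ER promoters (88.2%). 3 promoters with the ER stress element are shown as the 250 bases before the start, with the element in capitals on either strand: Hspa5 at chr2:34771840-34772089 (+), Creld2 at chr15:88819396-88819645 (+) and Hsp90b1 at chr10:86705445-86705694 (-). Hsp90b1 held 2 matches, and Hspa5 and Creld2 held 1 each.
Hspa5: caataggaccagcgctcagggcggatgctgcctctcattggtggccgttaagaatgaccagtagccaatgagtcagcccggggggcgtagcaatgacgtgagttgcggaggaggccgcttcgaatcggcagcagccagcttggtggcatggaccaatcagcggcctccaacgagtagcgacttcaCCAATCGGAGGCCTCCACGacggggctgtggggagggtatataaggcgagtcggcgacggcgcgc
Creld2: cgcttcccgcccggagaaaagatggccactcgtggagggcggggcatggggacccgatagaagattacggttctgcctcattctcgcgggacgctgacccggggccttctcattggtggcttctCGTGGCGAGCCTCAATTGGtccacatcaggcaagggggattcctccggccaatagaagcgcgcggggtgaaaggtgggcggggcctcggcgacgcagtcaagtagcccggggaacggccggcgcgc
Hsp90b1: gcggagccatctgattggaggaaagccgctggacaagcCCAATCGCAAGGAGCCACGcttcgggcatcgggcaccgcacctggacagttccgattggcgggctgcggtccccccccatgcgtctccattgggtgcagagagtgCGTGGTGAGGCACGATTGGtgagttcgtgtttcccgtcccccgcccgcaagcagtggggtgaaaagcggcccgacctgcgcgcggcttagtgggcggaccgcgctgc

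The amino acid stress response, run by ATF4, was mixed. Of 14 members, 3 rose and 5 fell, beside 16.6% and 20.0% of all genes measured on all 7 arrays. The median was -0.36 in the ratio and 0.14 and -0.10 in the liver channel, and under median centring 5 rose and 0 fell. Asns, asparagine synthetase, read -3.05, -3.42, -2.73 and -3.55 in fasted and -4.54, -4.76 and -4.87 in fed livers and rose by 1.53 ± 0.52 (adjusted p = 0.033). No fasted liver reached a fed one, and the groups did not overlap for 44.4% of the 7495 genes either. The Asns call was lost without fasted liver 1 or 3 or any 1 fed liver (adjusted p = 0.063 to 0.0873). It was also lost in the liver channel under both scalings and with a scale step. Ddit3, the CHOP transcription factor, rose by 0.99 ± 0.31 (adjusted p = 0.026) and was above background on 1 fed array. It lost its call without fasted liver 1 or 2 or fed liver 1 or 2 (adjusted p = 0.0667 to 0.0744). The call was also lost with the control arrays only and with a scale step. The letters of the CHOP and ATF4 composite element, TGATGCAA, were in 5 of 21 promoters of this list (23.8%) beside 279 of all (1.03%). The Fgf21 promoter holds them as well, and its 250 bases at chr7:45615491-45615740 (-) are shown with their reverse complement in capitals because Fgf21 was a gene with a large rise.
Fgf21: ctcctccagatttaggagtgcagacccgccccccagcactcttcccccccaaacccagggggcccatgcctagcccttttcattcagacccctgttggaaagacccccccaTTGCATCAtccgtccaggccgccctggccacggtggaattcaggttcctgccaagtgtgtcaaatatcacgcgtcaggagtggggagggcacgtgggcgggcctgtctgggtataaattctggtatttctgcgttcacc

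Glucocorticoid responsive genes were also split, with 3 of 14 higher and 4 lower, beside 16.6% and 20.0% of all genes measured on all 7 arrays. The 3 alone kept their sign in the liver channel. Cebpd, a transcription factor induced by glucocorticoid, read -1.56, -1.38, -1.63 and -0.76 in fasted and -3.08, -2.30 and -2.10 in fed livers and rose by 1.16 ± 0.26 (adjusted p = 0.0038), with 0.83 and 0.62 in the liver channel. Fkbp5, a co-chaperone of the receptor, read 0.30, 0.51, 1.18 and 1.52 against -0.38, -0.83 and 0.17, was above background on no fed array, and was at least 1.69-fold higher (adjusted p = 0.014, or 0.069 without fed liver 2). That call was also lost under median centring and with marked local backgrounds kept (adjusted p = 0.0806 and 0.106). Tat, tyrosine aminotransferase, fell by 0.72 ± 0.16 in the ratio (adjusted p = 0.0037), with 0.07 and 0.15 in the liver channel. Of 10 clock genes measured on all 7 arrays, 0 passed the limma test. Per1, a clock gene that glucocorticoid also induces, read -0.07, 0.83, 0.89 and 0.90 against -1.43, 0.07 and 0.40 (0.96 ± 0.42, adjusted p = 0.093, or 0.0493 without fasted liver 1 and 0.0429 without fed liver 3). Cry1 was above background on no fed array and its ratios overlapped (adjusted p = 0.12).

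Bile acid genes included single large rises within a list that mostly fell. Of 19 members, 2 rose and 10 fell, and 2 and 4 of these had the same sign in the liver channel. With a scale step 7 rose and 0 fell, so the list's direction depended on the scaling. Cyp8b1, the sterol 12-hydroxylase that makes cholic acid, read 6.03, 6.09, 6.11 and 6.17 in fasted and 3.38, 4.63 and 3.95 in fed livers and rose by 2.11 ± 0.30 (adjusted p = 0.00026), with 2.21 and 2.02 in the liver channel and 1.51 in the reference. Akr1d1, the steroid reductase of the same pathway, was above background on no fed array and at least 1.40-fold higher in fasting (adjusted p = 3.5e-06). With marked local backgrounds kept both calls were lost, Cyp8b1 at 0.48 (adjusted p = 0.635) and Akr1d1 at 0.45 (adjusted p = 0.706), and that of Cyp8b1 was lost with processed signals too (0.71, adjusted p = 0.113). Cyp7a1, the rate-limiting enzyme of bile acid synthesis, read 6.00, 6.20, 6.26 and 6.17 against 3.86, 6.00 and 7.02, so the fed livers spanned the fasted ones (0.53 ± 0.83, adjusted p = 0.65). Another Cyp7a1 probe, above background on 1 fed array, differed by 2.82 in the ratio and by 0.71 in the liver channel under the 75th percentile. Nr0b2, the SHP repressor of Cyp7a1, did not pass the test (0.82 ± 0.55, adjusted p = 0.26).

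Of 21 genes of drug metabolism, 4 rose and 15 fell, 3 and 9 of them with the same sign in the liver channel, and the median was -0.76 in the ratio and 0.04 and 0.15 in the liver channel, with 6 higher and 2 lower after a scale step (median 0.66). Cyp2b9, a cytochrome known to be higher in female livers, read 0.72, 0.57, 1.14 and 1.36 in fasted and 5.41, 5.06 and 6.29 in fed livers, the largest fall among the genes named here. It fell by 4.64 ± 0.74 (adjusted p = 0.00047), and its raw liver spot was 83, 84, 107 and 141 against 1148, 1111 and 8572. Cyp2b13, its close paralog, read 0.77, 0.43, 0.87 and 1.30 against 2.74, 2.84 and 5.32 and fell by 2.79 ± 0.72 (adjusted p = 0.009), so that fed liver 3 was highest in both. Gsta1, a glutathione transferase, fell by 1.47 ± 0.39 (adjusted p = 0.01), with -1.94 and -2.04 in the liver channel. In the knockout livers the fasting change was 0.06 for Cyp2b9 and 0.50 for Cyp2b13, and the difference between genotypes did not pass the test (adjusted p = 0.53 and 0.64).

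Many genes of abundant plasma proteins fell in the ratio, and fewer of them had the same sign in the liver channel. Of 18 genes of lipoprotein assembly, 1 rose and 12 fell, and 6 of the 12 were also lower in the liver channel under both scalings, with medians of -0.88 in the ratio, -0.01 and 0.15 in the liver channel and 0.48 in the reference. Of 14 hepatocyte markers, 12 fell and 0 rose, 3 of them with the same sign in the liver channel, with medians of -1.15, 0.31 and 0.41, and 0.87 in the reference. With a scale step 3 genes of lipoprotein assembly rose and 1 fell, and 2 hepatocyte markers rose and 1 fell. Fgg, fibrinogen gamma, read 7.74, 8.05, 8.25 and 8.35 in fasted and 10.83, 10.64 and 10.20 in fed livers, and its reference spot read 3637.5, 3076, 2315 and 2739 against 552, 638 and 523.5. Its ratio fell (adjusted p = 3.5e-06) while the liver channel changed by -0.58 or 0.20. Apoa1, the main protein of HDL, fell by 1.45 ± 0.12 (adjusted p = 7.2e-06), with 0.40 and 0.69 in the liver channel and 1.20 in the reference. Alb, albumin, fell by 1.84 ± 0.19 (adjusted p = 2.2e-05), with -1.46 and -0.71 in the liver channel, although its raw liver spot was 78802.5 on fasted array 3 and between 224852 and 242899 on the others.

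Urea cycle and amino acid breakdown genes (28 measured, 1 rose and 14 fell) had a median of -0.49 in the ratio, 0.22 and 0.12 in the liver channel and 0.40 in the reference. Acute phase proteins (19 measured, 2 rose and 9 fell) had medians of -0.43 in the ratio and -0.00 and 0.18 in the liver channel, and 0.44 in the reference. Of 30 cytosolic ribosomal proteins 6 rose and 0 fell in the ratio (median 0.18), while the liver channel medians were -0.18 and -0.19, and of 25 respiratory chain subunits 5 rose and 9 fell (median -0.14, and -0.29 and -0.33 in the liver channel). Beside these counts, 16.6% of all genes measured on all 7 arrays rose and 20.0% fell. The direction depended on the scaling in each of these lists. With a scale step 7 rose and 0 fell of the urea cycle list, 5 rose and 1 fell of the acute phase list and 0 rose and 3 fell of the ribosomal list. Of the respiratory chain list, which was lower in the ratio and in the liver channel, 5 rose and 6 fell with a scale step (median 0.04), and 20 rose and 0 fell under median centring (median 0.59).

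The largest changes outside these pathways were chosen by size among genes measured on all 7 arrays with separate groups and the same sign in the liver channel. Dsg2, a desmosomal cadherin, rose by 2.36 ± 0.15 (adjusted p = 1.7e-06), Atp8b1, a lipid flippase of the canalicular membrane, by 2.64 ± 0.17 (adjusted p = 1.7e-06) and Kdr, the VEGF receptor of endothelial cells, by 2.39 ± 0.18 (adjusted p = 4.2e-06). Their liver channel changes were 1.52, 0.75 and 0.97 under the 75th percentile. With marked local backgrounds kept their changes were -0.12, -0.07 and -0.22, so their direction depended on that step.

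The large falls depended less on it. Paqr6, a membrane progestin receptor, read 0.37, 0.34, 0.37 and 0.13 in fasted and 2.24, 2.58 and 2.51 in fed livers and fell by 2.14 ± 0.11 (adjusted p = 2.7e-07), with -2.77 and -2.39 in the liver channel. Mpst, mercaptopyruvate sulfurtransferase, read 0.01, 1.07, 1.14 and 1.08 against 2.83, 2.84 and 3.06 and fell by 2.08 ± 0.23 (adjusted p = 4.6e-05). Disc1, a scaffold protein, fell by 2.17 ± 0.16 (adjusted p = 4.1e-06), and the 3 genes fell by 2.06 to 2.21 in the knockout livers too. Lrtm1, a leucine-rich repeat membrane protein, read 3.00, 5.10, 3.55 and 1.25 against 6.37, 5.86 and 6.28 (adjusted p = 0.0031), and Inf2, a formin, read -1.17 to -0.56 against 2.48, -0.48 and 2.27 (adjusted p = 0.0041). Fed liver 2 lay next to the fasted livers for Inf2. Upk1a, a uroplakin, was above background on no fasted array and at least 7.88-fold higher in fed livers (adjusted p = 0.00028). Rgs5, a regulator of G protein signalling found in pericytes, and Sowahb were above background on no fed array and at least 1.98-fold and 1.81-fold higher in fasted livers. Both lost the call with marked local backgrounds kept (0.76 and 1.01, adjusted p = 0.654 and 0.41), and Rgs5 also in the liver channel under both scalings (adjusted p = 0.112 and 0.0931).

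Markers of the other cell types of the liver were set beside these results. Of 15 Kupffer cell markers tested, 7 rose and 0 fell, beside 20.6% of all tested genes rising, with a summed level of 37860 to 79880 in fasted and 32960 to 46600 in fed livers on the scaled liver channel. C1qb, a complement subunit made by macrophages, read 4.82, 5.60, 4.73 and 5.05 against 3.70, 3.05 and 3.32, and Marco, a macrophage scavenger receptor, rose by 2.07 ± 0.51 (adjusted p = 0.0066). Of the 13 Kupffer markers measured on all 7 arrays 6 rose and 0 fell, and with marked local backgrounds kept 0 rose, 1 fell and C1qb read -0.15. Endothelial markers (7 of 15 tested rose, 1 fell) summed to 21070 to 28210 in fasted and 31700 to 34230 in fed livers. Of the 10 measured on all 7 arrays, 2 rose and 1 fell. Stellate cell markers (6 of 15 tested rose, 2 fell) summed to 33390 to 45070 and 48460 to 51210. Of the 10 measured on all 7 arrays, 3 rose and 2 fell. Among all genes so measured, 16.6% rose and 20.0% fell. The counts over tested genes, which pointed the other way from the sums, include genes measured on no fed array. Erythroid markers summed to 53530 to 199400 and 60010 to 70130, with 2 of 7 tested higher and 4 lower. The summed levels of 3 further lists did not overlap between the groups and were lower in fasted livers. Only 2 cholangiocyte, 3 adipocyte and 1 acinar gene were measured on all 7 arrays. Each list holds members that were well above background on no fed array. Negative control spots read 127 to 146 on the fed arrays against 42 to 52 on the fasted arrays. The part of that background in the sums was not tested. Cholangiocyte markers (1 of 7 rose, 1 fell) summed to 2489 to 2872 in fasted and 3553 to 4440 in fed livers, adipocyte markers (1 of 9 rose, 1 fell) to 79560 to 129800 and 161400 to 172000, and pancreatic acinar markers (0 of 6 called) to 1533 to 2234 and 2345 to 2827. Neutrophil markers (0 of 3 called) summed to 520.2 to 1138 and 741.3 to 839.9, and lymphocyte markers (3 of 12 rose, 2 fell) to 2198 to 4401 and 2806 to 3593, with overlap. The part of these cell types in the changes above was not tested.

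In the knockout livers, whose arrays were scanned on the same days as those of the controls of their feeding state, the fasting medians were -1.04 for fatty acid synthesis, -1.10 for cholesterol synthesis, 0.96 for heat shock proteins and 0.21 for ER chaperones. In that comparison 5910 of 16097 genes passed (36.7%). Srebf1 fell by 2.63 and Fasn by 3.11 in the knockouts, Hsph1 differed by 2.53, Acot1 by 1.41 and Fgf21 by 0.53. In the limma test of the difference in fasting change between genotypes, 0 of 16097 genes passed (0%), with 1076 at an unadjusted p under 0.05. For Cyp4a14 the knockout change was 2.06 beside -0.08 in controls, with adjusted p = 0.34 for the difference, and for Fgf21 it was 0.72.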

How the data were processed

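Liver RNA (Cy3) and a commercial mouse reference RNA (Cy5) were hybridised together to 2-colour Agilent arrays of design 014868. Deposited array files hold spot intensity and a log10 ratio per spot as the authors' Feature Extraction software wrote them, version 10.5.1.1 per the file headers and 8.5.1.1 per the submitters' processing notes. The deposited value table equals that log10 ratio on each adult array and was not tested. Only the 7 control arrays are described, and all 14 adult arrays entered the fit (residual df 10).

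Median spot intensities were background corrected with limma 3.58.1 in R 4.3.3 (normexp, offset 50), with local backgrounds that Feature Extraction marks as outliers replaced by the array median. Marked local backgrounds numbered 287 to 1309 of 43379 spots on the fasted and 310 to 519 on the fed control arrays. Ratios were loess normalized within arrays with control spots at weight 0, turned to log2 liver over reference, and not scaled between arrays. Spots marked as outliers were left out and spots of a probe averaged. A gene was tested where its liver signal was well above background on at least 3 of the 7 control arrays, through its brightest probe. Other probes of a gene could differ from it, as given for Dgat2, Cpt1a, Cyp4a10 and Cyp7a1. The threshold on the adjusted p of limma was 0.05. Self-tests on simulated data were run for the fit.

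Symbols came through accession for 26207 probes, symbol for 5591 and synonym for 1034 of a RefSeq table, and 8342 probes kept the file's name. The genes named are a list of core fasting genes, the 15 largest rises and 15 falls with the same sign in the liver channel, up to 4 members of each gene list by adjusted p, and up to 8 bounds. Acacb, Acadl, Alb, Ddit3, Dhcr7, Ehhadh, Etfdh, Fdps, Gsta1, Hmgcs1, Hsp90ab1, Hsp90b1, Hspa5, Hspb1, Hyou1, Marco, Pex11a, Sdf2l1 and Tkt were added after their values were seen. The members and lists were chosen with earlier results of these data known. Pck1 and Irs2 are not analysed here, as no probe carried those names, and some other genes of the core list are not reported here.

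Alternatives covered the background step, normalization, liver channel alone, filters, array weights, slide as a random block, the replicate number as a block and leaving out each control array. Other software was Python 3.11.15, pandas 2.3.3, numpy 2.4.6 matplotlib 3.10.9 and the R package for data tables in version 1.17.8. The number of arrays limits the precision.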

Additional observations from a re-analysis of the deposited data

Results flagged for a closer look

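In 4 genes, 1 fasted liver lay apart from the other 3 by more than Dixon's criterion allows, which chance meets in about 1 in 20 groups tested. Scd1 read 2.30 on the log2 ratio scale in fasted liver 4 beside 3.54 to 3.58 in the other fasted livers, and its fall was larger in that liver. Paqr6 read 0.13 in fasted liver 4 beside 0.34 to 0.37. Mpst read 0.01 in fasted liver 1 beside 1.07 to 1.14, and Per1 read -0.07 in the same liver beside 0.83 to 0.90. The causes were not tested.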

How the results depend on the processing

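Over 24 alternative settings and 92 named genes, 1930 gene and setting pairs kept direction and side of the threshold, 125 lost a call, 51 gained one and 42 turned sign. Of the 70 genes called, 16 were called with 1 sign under every setting that tested them: Acot1, Acss2, Creld2, Cyp2b9, Dhcr7, Disc1, Etfdh, Fasn, Hsph1, Inf2, Mpst, Nsdhl, Paqr6, Sdf2l1, Srebf1 and Upk1a. The cause was not tested for any change below.

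The number of genes higher in fasting, 3311, was 6210 under median centring, 7049 with Feature Extraction's processed signals, 1200 with marked local backgrounds kept, 1335 with the liver and 1291 with both channels above background on all 7 arrays. The number lower, 2703, was 1562 with processed signals, 5265 in the liver channel under the 75th percentile, 1592 and 1591 under those filters, 4895 with no filter, and 1094 with negative control spots as background together with the filter on all 7 arrays, a background chosen after seeing the data. The share higher among called genes, 55.1%, was 72.6%, 81.9%, 33.4% and 30.6% under median centring, processed signals, marked backgrounds kept and the 75th percentile, and 67.8% with negative control background and the filter. The median change of all genes, 0.06, was 0.27 under median centring, 0.42 with processed signals and -0.21 under the 75th percentile. Leaving out each control array gave 2487 to 3127 higher and 2162 to 2554 lower. Genes whose fasting change differed between genotypes, 0, numbered 1 with a scale step between arrays, 11 with processed signals, 4 with negative control background, 2 with that and the filter, and 0 to 3 when 1 control array was left out.

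Signs turned as follows. Under median centring the log2 changes were -0.94 for Cry1, 0.67 for Cyp4a14, 0.03 for Dgat2, 0.17 for Igf1 and 0.05 for Tat. With a scale step they were 1.54 for Cyp4a14, 0.36 for Dgat2, 0.05 for Ehhadh, 0.29 for G6pc, 0.52 for Igf1, -0.06 for Pik3r1 and 0.53 for Tat. With marked local backgrounds kept they were -0.07 for Atp8b1, -0.15 for C1qb, -0.12 for Dsg2 and -0.22 for Kdr, and with processed signals 0.88 for Acaca. In the liver channel under the 75th percentile they were 0.02 for Acaca, 0.40 for Apoa1, 2.60 for Cyp4a14, 1.78 for Ehhadh, 0.71 for Eno1, -0.13 for Pik3r1, -1.01 for Pklr, -0.93 for Ppargc1a, 0.07 for Tat, -3.76 for Thrsp and 1.82 for Txnip. Under quantile scaling they were 0.32 for Acaca, 0.69 for Apoa1, 2.77 for Cyp4a14, 1.72 for Ehhadh, 0.52 for Eno1, 0.06 for Fbp1, 0.20 for Fgg, 0.04 for Ghr, 0.04 for Igf1, -0.35 for Pik3r1, -1.08 for Pklr, 0.15 for Tat, -3.84 for Thrsp and 1.59 for Txnip.

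With the replicate number as a block, 2906 genes were higher and 2441 lower. Deviations of same-numbered livers correlated at -0.06, -0.122 and -0.133, so the numbers did not pair the samples. With slide as a random block, 2994 were higher and 2481 lower. Signal over background limits the fed arrays most, since 5078 genes were measured on the fasted control arrays and on no fed control array.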
